A study of Mus musculus with 15 samples.

Results

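The mRNAs of the condensin and SMC5/6 subunits were measured in mouse embryonic stem cells with a knockout of Stag1 or Stag2, a knockdown of Stag1, or a Stag2 knockout with Stag1 knocked down. STAG1 and STAG2 are the interchangeable subunits of cohesin. The members are the 10 genes Smc2, Smc4, Ncapd2, Ncapg, Ncaph, Ncapd3, Ncapg2, Ncaph2, Smc5 and Smc6, chosen by name from the 23412 genes counted, and all 10 were found. PolyA RNA was sequenced from 15 libraries of the male mouse line v6.5, with 3 replicates in each of 5 conditions. WT siGLO cells carried both Stag genes and received siGLO, a transfection control, at 50 nM. WT siStag1 cells received an siRNA against Stag1 instead, at the same dose. Stag1-KO siGLO and Stag2-KO siGLO cells were knockouts given the control, and Stag2-KO siStag1 cells were Stag2 knockouts given the Stag1 siRNA. All cells were collected 48 h after transfection. Each knockout was represented by 1 CRISPR clone that carries a deletion in its target gene, so an effect of the gene and a property of the clone cannot be told apart. The study's supplement calls the RNA replicates of the wild-type and knockout cells biological, and those of a knockout came from its 1 clone. Nothing more is said of how they were separated, so p-values measure the spread between these libraries.

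Condensin and SMC5/6 are relatives of cohesin: in each, a pair of SMC ATPases forms a ring that is closed by a kleisin subunit and that entraps or extrudes DNA. Condensin I and condensin II share the SMC2 and SMC4 ATPases and compact chromosomes for mitosis. They differ in the kleisin, NCAPH or NCAPH2, and in the HEAT-repeat subunits, NCAPD2 and NCAPG or NCAPD3 and NCAPG2. Condensin II is nuclear throughout the cell cycle, whereas condensin I reaches the chromosomes after the nuclear envelope breaks down. SMC5/6 acts in DNA repair and in resolving recombination and replication intermediates. Rapidly dividing embryonic stem cells express all of these complexes.

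Between 14982560 and 19070126 counts fell on genes per library (median 17700059). The targeted genes were read first. Stag2 had 2329, 2334 and 2329 normalized counts (counts scaled by edgeR's TMM method to a common depth) in WT siGLO replicates 1, 2 and 3, 663 to 739 in Stag2-KO siGLO and 851 to 940 in Stag2-KO siStag1. Stag1 was at 2012 to 2288 in WT siGLO, 353 to 517 in WT siStag1 and 629 to 781 in Stag2-KO siStag1. In Stag1-KO siGLO it was at 1826 to 2368, so the Stag1 count does not check the label of that clone, which carries an in-frame deletion. All 8 embryonic stem cell markers were detected in all conditions, but their levels differed. Against WT siGLO by edgeR, 6 of 8 fell in Stag2-KO siStag1, led by Esrrb (log2 fold change -2.64), Zfp42 (-1.74) and Nanog (-1.61). In Stag2-KO siGLO 3 of 8 fell, led by Esrrb (-0.83), and in Stag1-KO siGLO 1 of 8, Pou5f1 (-0.35). Of all genes, 43.9% were called in Stag2-KO siStag1, 28.3% in Stag2-KO siGLO and 20.0% in Stag1-KO siGLO (21.3%, 14.4% and 9.93% lower). The same shares apply to the counts of the other markers below. Of 5 neural progenitor markers tested, 3 rose and 1 fell in Stag2-KO siStag1, led by Pax6 (3.48) and Nes (1.74). In Stag2-KO siGLO 2 rose, Pax6 (2.71) and Nes (1.15), and Olig2 fell (-0.66), while in Stag1-KO siGLO Sox1 fell (-2.90). Of 4 mesoderm markers tested, 1 rose and 1 fell in both Stag2-KO siGLO, T (3.80) and Eomes (-0.87), and Stag2-KO siStag1. The libraries differed widely for T, at 128 ± 123 normalized counts (SD, n = 3) in Stag2-KO siGLO against a low 9.1 ± 2.21 in WT siGLO. The summed level of 7 fibroblast markers was 295 to 553 normalized counts in WT siGLO, where Lum and Dcn were at 0, and 288 to 646 in the other conditions. Of the 4 tested, 1 rose in Stag2-KO siGLO and 1 in Stag2-KO siStag1 by edgeR, and 0 were called in Stag1-KO siGLO. The summed level of 6 primitive endoderm markers was 3950 to 4362 normalized counts in WT siGLO, 329 to 531 in Stag1-KO siGLO, 730 to 1166 in Stag2-KO siGLO and 863 to 1133 in Stag2-KO siStag1, and 6 of 6 fell in each of these by edgeR. In bulk RNA, fewer cells of a type and less RNA per cell cannot be told apart, and the part of these cells in the members' results was not tested.

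In WT siGLO cells all 10 subunit mRNAs were abundant. Per kb of exon, their levels stood between percentile 66.8 (Smc6) and percentile 96.6 (Ncapd2) of 14403 genes tested that had a length. Divided by the length of the principal transcript, Ncapd2, the HEAT subunit of condensin I, had the highest level, with 1976 normalized counts per kb. The ATPase gene Smc4 followed with 1299 and the condensin II kleisin gene Ncaph2 with 1260, and the replicates of these overlapped. Smc2, which encodes the partner of SMC4, was at 922 per kb. Ncaph, the condensin I kleisin gene, was at 710 and Smc5, an ATPase gene of SMC5/6, at 686, again with overlapping replicates. The condensin I HEAT subunit gene Ncapg was at 623 per kb, below both without overlap. The lowest levels were those of Ncapg2 (395), Smc6 (393) and Ncapd3 (386), whose replicates overlapped with their neighbours in this order. The HEAT subunit mRNAs of condensin II were thus below those of condensin I per kb, while the order of the kleisin mRNAs was the opposite. These levels depend on the transcript chosen for the length, and each gene's values in the 5 conditions were far closer to each other than the top and the bottom of this order.

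**Figure D1:**
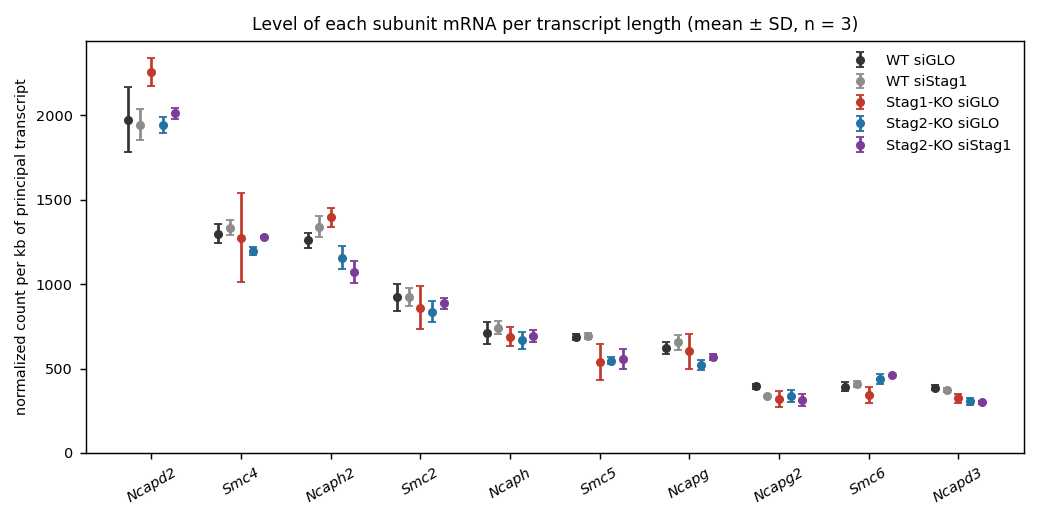
Normalized count per kb of the principal transcript (y axis) of each subunit mRNA (x axis, in order of the WT siGLO level) in the 5 conditions, as points with the mean and bars of 1 SD (n = 3). Ncapd2 stands highest, with a mean of 1976 in WT siGLO, and Ncapg2, Smc6 and Ncapd3 lowest, with means of 395, 393 and 386.

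The genes lie on different chromosomes, apart from Ncapg2 and Smc6, which are both on chromosome 12 (mm10, from 116405402 to 116463731 and from 11265886 to 11319785, both on the plus strand). Ncapd3 lies on chromosome 9 from 27030175 to 27095315 (plus strand, 36 exon blocks in all its transcripts) and Smc5 on chromosome 19 from 23206451 to 23273897 (minus strand, 26 exon blocks). Ncaph2 lies on chromosome 15 from 89355719 to 89372826 (plus strand, 13 exon blocks). The sequences upstream of 5 subunit genes are shown because these are the condensin genes whose mRNA was called changed between any of the conditions. They are from RefSeq (GRCm38.p6, the same assembly as mm10), which listed 9 of the 10 genes in the table used, all but Smc4. Capitals mark the motifs TTTGAA or TTCGAA and, where present, CCAAT, read on either strand. TTTGAA and TTCGAA are the forms of the CHR element known from promoters of genes expressed in G2 and mitosis, and CCAAT is the box bound by NF-Y. Each window is 130 bases long and ends before the first annotated exon, except the 30 bases around the Ncapg2 match. Those 30 bases end before the RefSeq start of Ncapg2 at 116405436, but lie inside the gene as placed above, from 116405402.
Ncapg chr5:45669789-45669918 (plus strand): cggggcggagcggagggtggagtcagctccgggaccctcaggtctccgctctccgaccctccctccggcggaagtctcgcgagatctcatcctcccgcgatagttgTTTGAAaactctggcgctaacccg
Ncapd2 chr6:125191702-125191831 (minus strand): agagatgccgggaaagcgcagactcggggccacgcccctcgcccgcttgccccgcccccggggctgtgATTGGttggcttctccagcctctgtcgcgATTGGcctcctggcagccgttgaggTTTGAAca
Ncapg2 chr12:116405406-116405435 (plus strand): tacgcgggtgtgTTTGAAtctggtccgagc
Ncaph2 chr15:89355589-89355718 (plus strand): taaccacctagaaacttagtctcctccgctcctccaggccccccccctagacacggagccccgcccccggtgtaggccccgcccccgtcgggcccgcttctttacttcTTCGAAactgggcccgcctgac
Ncapd3 chr9:27030035-27030164 (plus strand): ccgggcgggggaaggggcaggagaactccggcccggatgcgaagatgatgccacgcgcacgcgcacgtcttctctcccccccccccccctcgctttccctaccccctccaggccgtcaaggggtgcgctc

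Over windows from 250 bases before to 50 bases after each listed start, TTTGAA was found for 6 of the 9 genes (Smc2, Ncapd2, Ncapg, Ncapg2, Ncapd3 and Smc6) and for 20.2% of all 27025 genes listed, a gene being counted when any of its starts held the motif. In Ncapg it began 30 bases before the start listed in RefSeq, in Ncapg2 18 and in Ncapd2 123. In Ncapd3 it occurred only at another listed start, 249 bases upstream of it, so the Ncapd3 window printed has no capitals. TTCGAA was found for Ncaph2, 22 bases before the start, and for Smc6, and for 1.8% of all genes. CCAAT was found for Smc2, Ncapd2 and Ncapg, against 41.1% of all genes. The GC box GGGCGG was found for 7 of the 9 genes, against 38.2%. Of the E2F-like motifs, TTTCCCGC was found for Ncapg and Ncapg2 (1.24% of all genes) and TTTGGCGC for Ncapd2 (0.585%). Smc5 held none of the 14 motifs searched, nor did Ncaph, both strands being read for each motif. A match is a description of the letters and not evidence of binding.

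Across the 5 conditions the member mRNAs moved little. The largest fold change of any member in any comparison was 1.28 in either direction, for Ncapd3 in Stag2-KO siStag1 cells. Of the 10 genes, Smc2, Smc4 and Ncaph were called in none of the 8 comparisons at an adjusted p under 0.1 by edgeR's quasi-likelihood test. The other 7 were each called in at least 1, and the share of all genes called is given with each comparison.

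**Figure D2:**
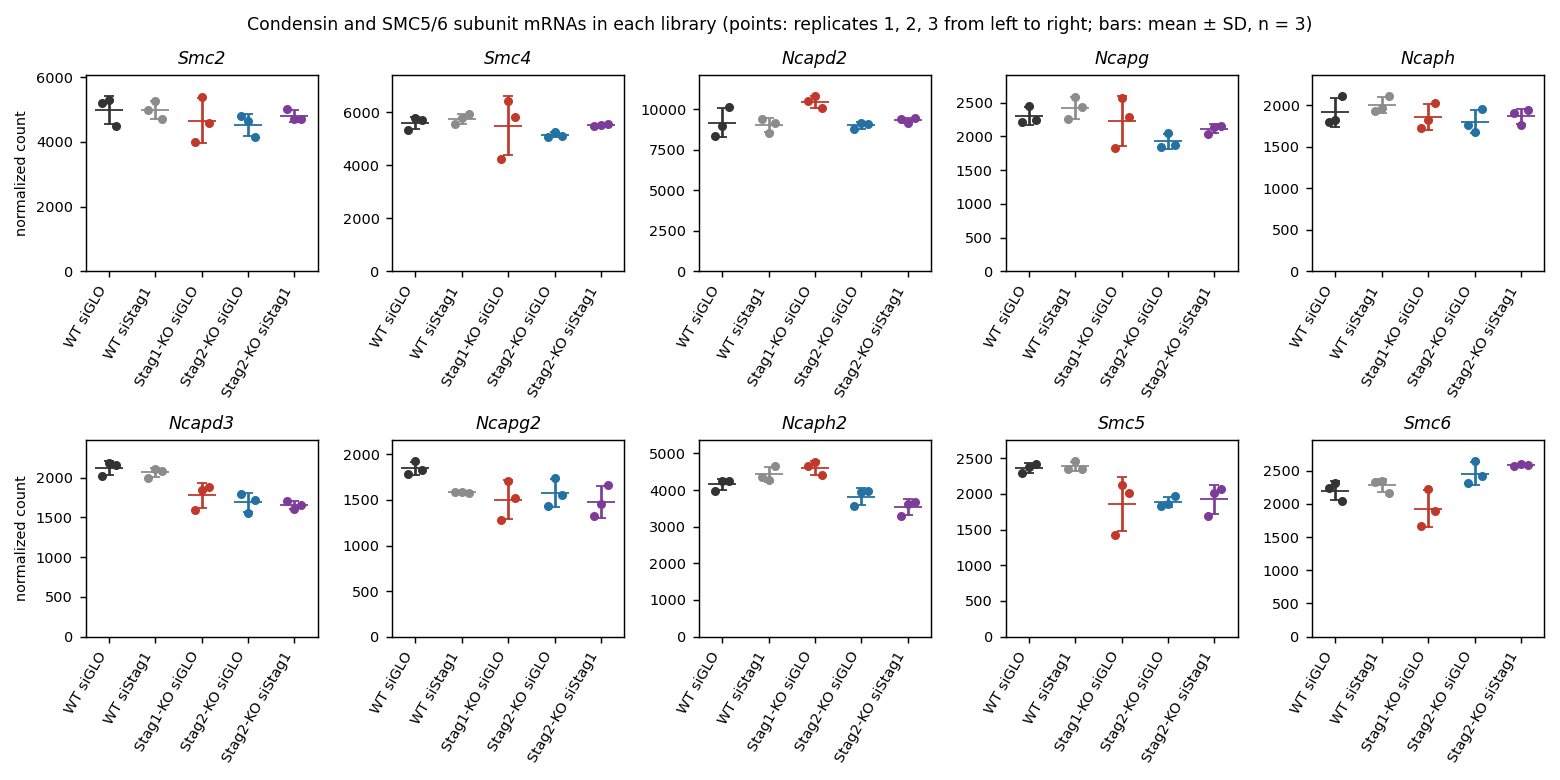
Normalized counts (y axes, from 0) of the 10 subunit mRNAs in each library, by condition (x axes), with points for replicates 1, 2 and 3 from left to right and the mean and 1 SD as lines (n = 3). Ncapd3 is lower in all 3 knockout conditions than in WT siGLO, and Smc6 has its highest mean in Stag2-KO siStag1, at 2572, 2600 and 2583, below its highest single library, 2649 in Stag2-KO siGLO replicate 2.

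Chronic loss of STAG1 was examined by comparing Stag1-KO siGLO with WT siGLO. The mRNAs of the condensin II HEAT subunits Ncapd3 and Ncapg2 and of Smc5 fell by edgeR, which called no member higher. DESeq2 called these 3 and also Ncapd2 as higher (log2 fold change 0.20, DESeq2 adjusted p = 0.0558). Ncapd3 had 2025, 2185 and 2159 normalized counts in WT siGLO replicates 1, 2 and 3 and 1598, 1847 and 1878 in Stag1-KO siGLO. Every knockout library was below every control library, and the level fell by 16.4% (log2 fold change -0.26, SE 0.081, adjusted p = 0.0426 by edgeR). Ncapg2 was at 1787, 1929 and 1834 in WT siGLO and at 1276, 1712 and 1527 in the knockout, again without overlap. It fell by 18.6% (log2 fold change -0.30, SE 0.11, edgeR adjusted p = 0.0805). Smc5 had 2292, 2383 and 2418 normalized counts in WT siGLO and 1429, 2131 and 2011 in Stag1-KO siGLO. All 3 knockout libraries were lower, replicate 1 by far, and the mean fell by 21.4% (log2 fold change -0.35, SE 0.12, edgeR adjusted p = 0.0589).

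The 3 members called of 10 compare with 20.0% of the 14508 genes tested (9.93% called lower). The replicates of 4 members did not overlap, against 31.7% of all genes. The median log2 fold change of the members was -0.074, against -0.013 over all genes, and their median size was 0.17, against 0.207. Among the members not called, the condensin I gene Ncapd2 had a log2 fold change of 0.19 (95% interval 0.031 to 0.35, edgeR adjusted p = 0.106). Ncaph2, the condensin II kleisin gene, had 3983, 4249 and 4234 normalized counts in WT siGLO and 4654, 4768 and 4405 in Stag1-KO siGLO. These did not overlap, with a log2 fold change of 0.15 (edgeR adjusted p = 0.208). Smc6, which encodes the partner of SMC5, was at -0.19 (interval -0.39 to 0.012), and Smc2, Smc4, Ncapg and Ncaph lay between -0.099 and -0.026 with intervals that spanned 0.

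Same-numbered libraries deviated together in this comparison, and with the replicate number as a block 6 members were called by edgeR, with 30.6% of all genes. The block added Ncapd2 and Ncaph2 as higher (adjusted p = 0.0521 and 0.0983) and Smc6 as lower (0.0795). The 3 calls depended on single libraries. No member was called without Stag1-KO siGLO replicate 1 or without WT siGLO replicate 2, each by edgeR. Without WT siGLO replicate 3 the 3 calls were lost too, and Ncapd2 was called as higher instead (log2 fold change 0.27, edgeR adjusted p = 0.0327). Ncapd2 was also called as higher without Stag1-KO siGLO replicate 3 (0.22, edgeR adjusted p = 0.0964), and Smc6 as lower without Stag1-KO siGLO replicate 2 (-0.30, edgeR adjusted p = 0.0448). Without a filter on low counts, Ncapd3 and Ncapg2 lost their calls. Ncapg2 alone also lost its call without WT siGLO replicate 1 or Stag1-KO siGLO replicate 3. Over the 6 fits that left out 1 library, the edgeR adjusted p ranged from 0.0386 to 0.171 for Ncapd3, from 0.035 to 0.31 for Ncapg2 and from 0.028 to 0.22 for Smc5. Their log2 fold changes ranged from -0.30 to -0.19, from -0.40 to -0.19 and from -0.46 to -0.19, and each was at -0.19 without Stag1-KO siGLO replicate 1.

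Within Stag1-KO siGLO, replicate 1 had the lowest value of its condition for 8 of the 10 members, with a median deviation of -0.20 from the condition mean on the log2 scale, and replicate 2 the highest for 8, with a median of 0.21. The exceptions were the HEAT subunit gene Ncapd2 and the kleisin gene Ncaph2, for which replicate 3 was lowest. In WT siGLO, replicate 1 was also the lowest for 8 members, with a smaller median deviation of -0.057. The lowest single value was that of Smc5 in Stag1-KO siGLO replicate 1, at -0.73 on the log2 scale against the WT siGLO mean.

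**Figure D3:**
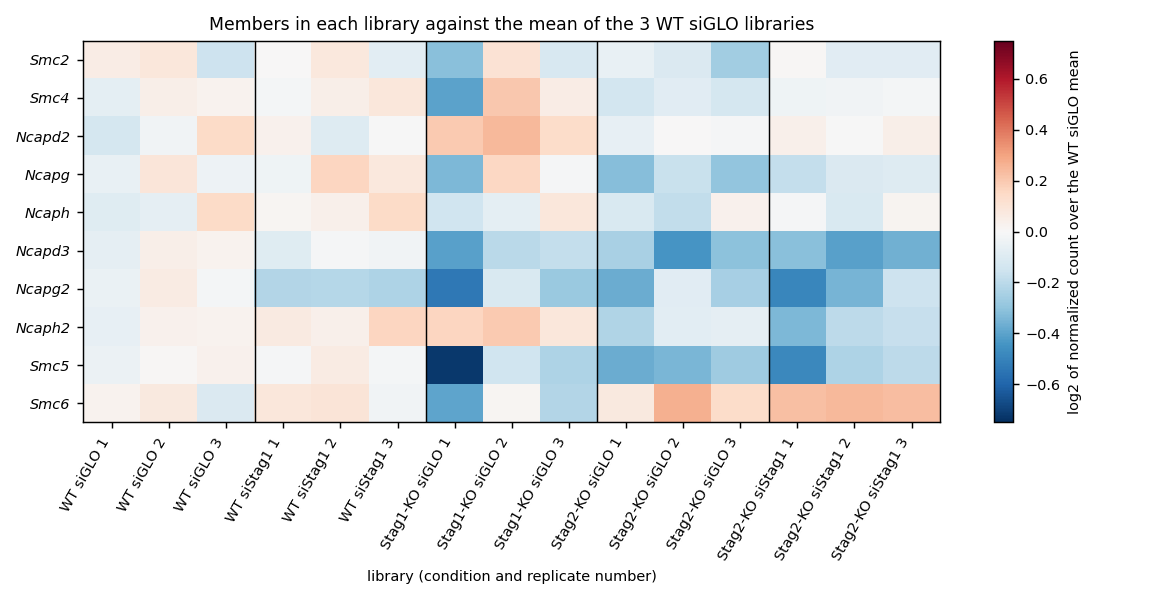
Log2 of each member's normalized count (rows) in each of the 15 libraries (columns, ordered by condition) over the mean of the 3 WT siGLO libraries, as colours from blue (lower) to red (higher). Stag1-KO siGLO replicate 1 is low for most members, down to -0.73 for Smc5, and the Ncapd3 row is blue in all knockout libraries.

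Chronic loss of STAG2 was examined by comparing Stag2-KO siGLO with WT siGLO, the same control libraries as above. Ncapd3, Smc5 and the condensin I gene Ncapg fell. Ncapd3 was at 1792, 1560 and 1714 normalized counts in Stag2-KO siGLO, below the 2025 to 2185 of WT siGLO in every library. It fell by 20.5% (log2 fold change -0.33, SE 0.081, edgeR adjusted p = 0.00925). Smc5 had 1826, 1862 and 1969 normalized counts, close together and below the 2292 to 2418 of WT siGLO, and fell by 20.2% (log2 fold change -0.33, SE 0.12, edgeR adjusted p = 0.0606). Ncapg had 2220, 2459 and 2243 normalized counts in WT siGLO and 1849, 2055 and 1878 in the knockout, without overlap. It fell by 16.4% (log2 fold change -0.26, SE 0.10, edgeR adjusted p = 0.0889).

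Here 3 of 10 members were called, all lower, and 28.3% of all genes (14.4% lower). The replicates of 6 members did not overlap, against 35.7% of all genes. The median log2 fold change of the members was -0.13, with 9 of 10 below 0, against a median of 0.007 over all genes. Smc6 was the exception in sign, at 0.16 (95% interval -0.042 to 0.36, edgeR adjusted p = 0.253). Smc4, Ncapg2 and Ncaph2 lay below WT siGLO in every library without being called, at -0.12, -0.23 and -0.12. The block added Ncapg2 (edgeR adjusted p = 0.0435), with 39.4% of all genes called. Ncapd2, the most abundant member, was at -0.022 (interval -0.18 to 0.14).

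The Ncapd3 call held without any single library, with edgeR adjusted p from 0.0081 to 0.0525. The Smc5 call was lost without WT siGLO replicate 2 or 3 or without Stag2-KO siGLO replicate 1 or 2, and the edgeR adjusted p was 0.0809 to 0.145 over all 6 fits without 1 library. The Ncapg call was lost without any 1 of the WT siGLO libraries and without Stag2-KO siGLO replicate 1 or 3 (0.0991 to 0.269 over all 6 fits), and with library size alone as the scaling or without a filter on low counts (0.107 and 0.118, edgeR). Ncapg also shares 944 exon bases with Lcorl on the opposite strand. Whether the counting used strand is not given in the sources used here. Lcorl itself had at most 476 counts in any library.

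No member was called after acute knockdown of Stag1 in otherwise wild-type cells. In WT siStag1 against WT siGLO, 0 of 10 members were called by edgeR, where 0.248% of all genes were, and 0 had an unadjusted p under 0.05, where 6.36% of all genes did, while DESeq2 also called 0. The median size of the members' log2 fold change was 0.0456, against 0.108 over all genes. The replicates of 2 members did not overlap, against 15.5% of all genes. Ncapg2 had 1587, 1592 and 1574 normalized counts, below the 1787 to 1929 of WT siGLO, at a log2 fold change of -0.22 (95% interval -0.45 to 0.0065, edgeR adjusted p = 0.802). Ncaph2 lay just above WT siGLO at 4358, 4272 and 4648 (log2 fold change 0.091, edgeR adjusted p = 0.999).

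The values of Ncapd3 and Smc5, the genes called in both knockouts, stayed close to the control under knockdown. Ncapd3 was at 1994, 2110 and 2088 normalized counts, with an interval of -0.21 to 0.13 for its log2 fold change. Smc5 was at 2352, 2463 and 2345, with an interval of -0.23 to 0.26. A log2 fold change of Smc5 down to -0.23 was thus not distinguishable from 0 here, while its estimates in the knockouts were -0.35 and -0.33. The difference between knockdown and knockout was not tested. The acute and chronic conditions also differ in duration and in clone, which cannot be told apart.

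Loss of STAG2 together with a partial depletion of Stag1 was examined in Stag2-KO siStag1 cells, in which Stag1 mRNA was at 692 normalized counts against 2146 in WT siGLO (fold 0.323). Against WT siGLO, all 3 subunits particular to condensin II fell, as did Smc5, while Smc6 rose. Ncapd3 had 1707, 1600 and 1651 normalized counts and fell by 22.1% (log2 fold change -0.36, SE 0.081, edgeR adjusted p = 0.00245). Ncapg2 had 1320, 1451 and 1660 and fell by 20.1% (-0.32, SE 0.11, edgeR adjusted p = 0.0282). Ncaph2 had 3292, 3626 and 3685, against 3983 to 4249 in WT siGLO, and fell by 14.9% (-0.23, SE 0.075, edgeR adjusted p = 0.0224). None of these libraries overlapped with WT siGLO. Smc5 was at 1693, 2015 and 2064, below all controls, and fell by 18.6% (-0.30, SE 0.12, edgeR adjusted p = 0.0585). Smc6 was at 2572, 2600 and 2583, against 2240, 2316 and 2043 in WT siGLO, a rise of 17.5% (0.23, SE 0.095, edgeR adjusted p = 0.067).

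That is 5 of 10 members, where 43.9% of all genes were called (21.3% lower and 22.6% higher), so the share of members is near that of all genes. The replicates of 6 members did not overlap, against 47.3% of all genes. The shared ATPase genes Smc2 and Smc4 were at -0.053 and -0.023, and the condensin I genes Ncapd2, Ncapg and Ncaph at 0.026, -0.13 and -0.034, all with intervals that spanned 0. Without any single library the calls of Ncapd3 and Ncaph2 held, with edgeR adjusted p up to 0.0142 and 0.0899. Ncapg2 lost its call without Stag2-KO siStag1 replicate 1 (0.106, edgeR), and Smc5 without that library or WT siGLO replicate 2 or 3 (up to 0.197, edgeR) and with library size alone. Smc6 lost its call without WT siGLO replicate 1 or 3 or any 1 of the Stag2-KO siStag1 libraries (up to 0.218, edgeR), and without a filter (0.117, edgeR).

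**Figure D4:**
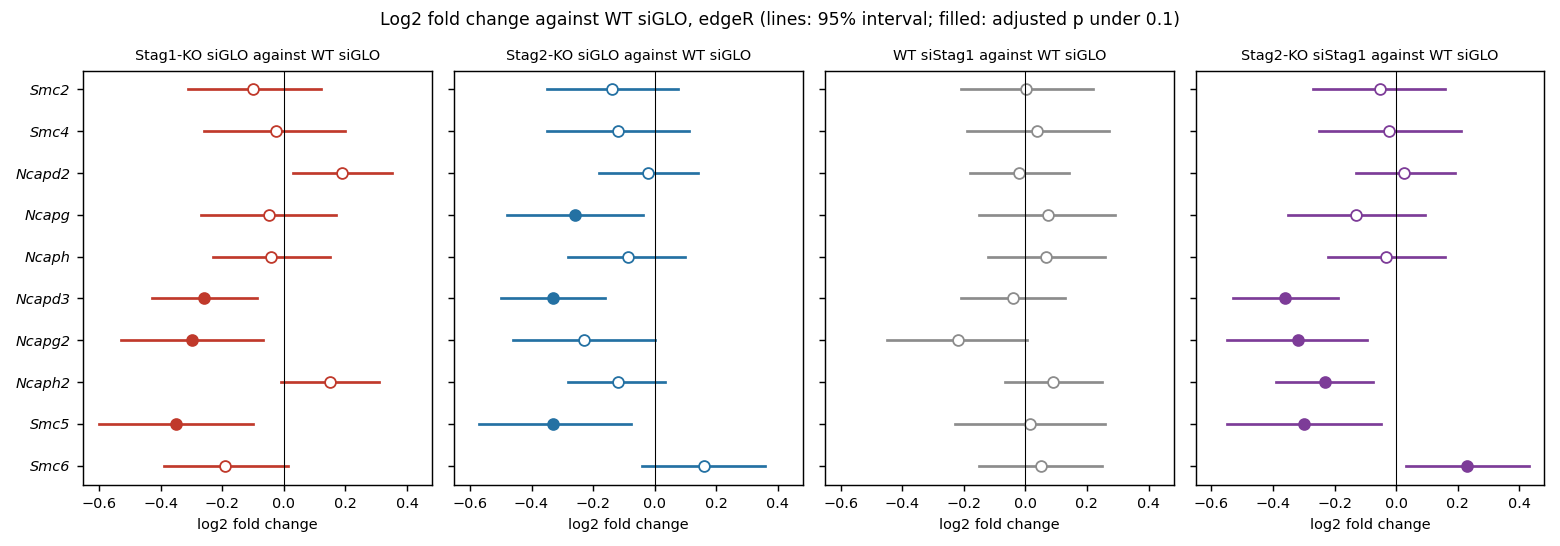
Log2 fold change against WT siGLO (x axes) of each member (y axis) in the 4 other conditions, with lines for the 95% interval and filled points for an edgeR adjusted p under 0.1. Filled points number 3, 3, 0 and 5 from left to right, Ncapd3 and Smc5 are filled in all panels but WT siStag1, and all 4 panels share the same control libraries.

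The same Stag2 knockout clone could be compared with wild-type cells under Stag1 knockdown, from other libraries than those of the siGLO comparison. In Stag2-KO siStag1 against WT siStag1, Ncapd3, Ncaph2 and Smc5 fell, 3 of 10 members where 37.5% of all genes were called (18.1% lower). Ncapd3 fell by 19.9% (log2 fold change -0.32, SE 0.081, edgeR adjusted p = 0.00716), next to 20.5% in the siGLO libraries. Smc5 fell by 19.4% (-0.31, SE 0.12, edgeR adjusted p = 0.0559), next to 20.2%. Ncaph2 fell by 20.1% (-0.32, SE 0.075, edgeR adjusted p = 0.00392), where the siGLO libraries had -0.12 without a call. The replicates of 6 members did not overlap, against 45.3% of all genes. The calls of Ncapd3 and Ncaph2 held without any single library, and that of Smc5 was lost without WT siStag1 replicate 2 or Stag2-KO siStag1 replicate 1 (edgeR adjusted p up to 0.185).

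Nor was any member called for the Stag1 siRNA within the Stag2 knockout. Of the 10, 0 were called in Stag2-KO siStag1 against Stag2-KO siGLO by edgeR, where 6.37% of all genes were, with 0 at an unadjusted p under 0.05 (16.7% of all genes) and 0 by DESeq2. Log2 fold changes ran from -0.11 (Ncaph2, interval -0.27 to 0.048) to 0.13 (Ncapg, -0.088 to 0.35). The replicates of 1 member did not overlap, against 19.3% of all genes: Smc4 had 5089, 5280 and 5116 normalized counts with siGLO and 5492, 5511 and 5547 with siStag1. The falls of Ncapd3 and Smc5 against WT siGLO were already present in the Stag2 knockout without the siRNA, at -0.33 each, and the siRNA was associated with further differences of -0.031 and 0.029 that were not distinguishable from 0.

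The difference between the siRNA effects in the knockout and in wild-type cells was tested as an interaction term. The knockdown was unequal, with Stag1 at 692 normalized counts in Stag2-KO siStag1 and 442 in WT siStag1 (1.57-fold, edgeR adjusted p = 0.00227). No member passed (0 of 10, 0.159% of all genes, 0 at an unadjusted p under 0.05 where 5.80% of all genes were, and 0 by DESeq2, edgeR being the main test). Ncaph2 came closest, at -0.20 on the log2 scale (95% interval -0.43 to 0.022, edgeR adjusted p = 0.907). Its estimate was 0.091 in wild-type cells and -0.11 in the knockout.

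The knockout clones were also compared directly. In Stag1-KO siGLO against Stag2-KO siGLO, 3 of 10 members were called where 25.7% of all genes were (12.7% higher and 12.9% lower), and none of the 3 was among those called in either knockout against WT siGLO without the block. With it, all 3 were called in Stag1-KO siGLO against WT siGLO. Ncaph2 was higher in Stag1-KO siGLO, at 4654, 4768 and 4405 normalized counts, than in Stag2-KO siGLO, at 3553, 3933 and 3962 (log2 difference 0.27, SE 0.075, edgeR adjusted p = 0.0191). The WT siGLO libraries, at 3983 to 4249, lay between these ranges. Ncapd2 was higher as well, at 10481, 10812 and 10049 against 8761, 9170 and 9100 (0.21, SE 0.076, edgeR adjusted p = 0.0614). Smc6 was lower, at 1670, 2223 and 1892 against 2310, 2649 and 2416 (-0.35, SE 0.096, edgeR adjusted p = 0.0186). These 3 were the members whose replicates did not overlap, against 31.0% of all genes. Ncapd3 and Smc5, which fell in both clones, differed by 0.072 (interval -0.10 to 0.24) and -0.022 (-0.27 to 0.23).

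The Ncaph2 and Smc6 calls between the clones held without any single library (edgeR adjusted p up to 0.0772 and 0.085). The Ncapd2 call was lost without any 1 of the Stag2-KO siGLO libraries and without Stag1-KO siGLO replicate 1 or 2 (up to 0.163, edgeR). Without Stag1-KO siGLO replicate 1, Smc4 (log2 difference 0.25, adjusted p = 0.0359) and Ncapg (0.34, adjusted p = 0.022) were called as higher by edgeR. The block added Ncapg as higher in Stag1-KO siGLO (log2 difference 0.20, edgeR adjusted p = 0.0526), with 37.3% of all genes called. Ncaph2 overlaps Sco2 and Tymp on the opposite strand, by 829 and 535 exon bases, and the counts of these were at most 0 and 25 in any library.

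The balance between subunits was followed within libraries, where scaling between libraries cancels. The ratio of the kleisin mRNAs, Ncaph over Ncaph2 per kb of exon, was 0.449 ± 0.0348 (SD, n = 3) in WT siGLO, 0.394 ± 0.0481 in Stag1-KO siGLO and 0.517 ± 0.0442 in Stag2-KO siStag1. It was 0.441 in WT siStag1 and 0.461 in Stag2-KO siGLO. In the 3 same-numbered pairs it was lower in Stag1-KO siGLO than in WT siGLO each time (0.361 against 0.441, 0.372 against 0.419 and 0.449 against 0.487). The direction turned when the other subunits were averaged in: the mean of Ncapd2, Ncapg and Ncaph over that of Ncapd3, Ncapg2 and Ncaph2 was 1.62, 1.63 and 1.66 in Stag1-KO siGLO against 1.49, 1.49 and 1.65, a log2 difference of 0.088 in place of -0.19. In Stag2-KO siStag1 the kleisin ratio was 0.563, 0.475 and 0.513, above the same-numbered library each time, although the numbers did not pair these conditions. Exact two-sided permutation tests without the pairing gave p = 0.3 for Stag1-KO siGLO, 0.9 for WT siStag1, 1 for Stag2-KO siGLO and 0.2 for Stag2-KO siStag1 (0.6 or 1 after adjustment over the 4). With 3 libraries against 3 the smallest p is 0.1, so no difference could have fallen under the threshold of 0.1, nor under 0.05. The tests thus do not show that the ratios were alike.

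Other ratios were chosen after the values were seen and are given without a test, from counts not divided by length. Smc5 over Smc6 was 1.02, 1.03 and 1.18 in WT siGLO replicates 1, 2 and 3 and 1.01, 1.05 and 1.09 in WT siStag1. In Stag2-KO siGLO it was 0.791, 0.703 and 0.815, and in Stag2-KO siStag1 0.658, 0.775 and 0.799. Both Stag2 knockout conditions were below all wild-type libraries, while Stag1-KO siGLO, at 0.856, 0.958 and 1.06, overlapped with WT siGLO but was lower than the same-numbered library each time. Ncapd3 over Ncapd2, the HEAT subunits in the same position of condensin II and condensin I, was 0.242, 0.244 and 0.213 in WT siGLO. It was 0.153, 0.171 and 0.187 in Stag1-KO siGLO, 0.205, 0.17 and 0.188 in Stag2-KO siGLO and 0.182, 0.175 and 0.175 in Stag2-KO siStag1. All 9 knockout libraries lay below the WT siGLO libraries, and WT siStag1, at 0.213, 0.247 and 0.229, overlapped with them. Smc2 over Smc4, the shared ATPase pair, had condition means from 0.854 to 0.89.

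**Figure D5:**
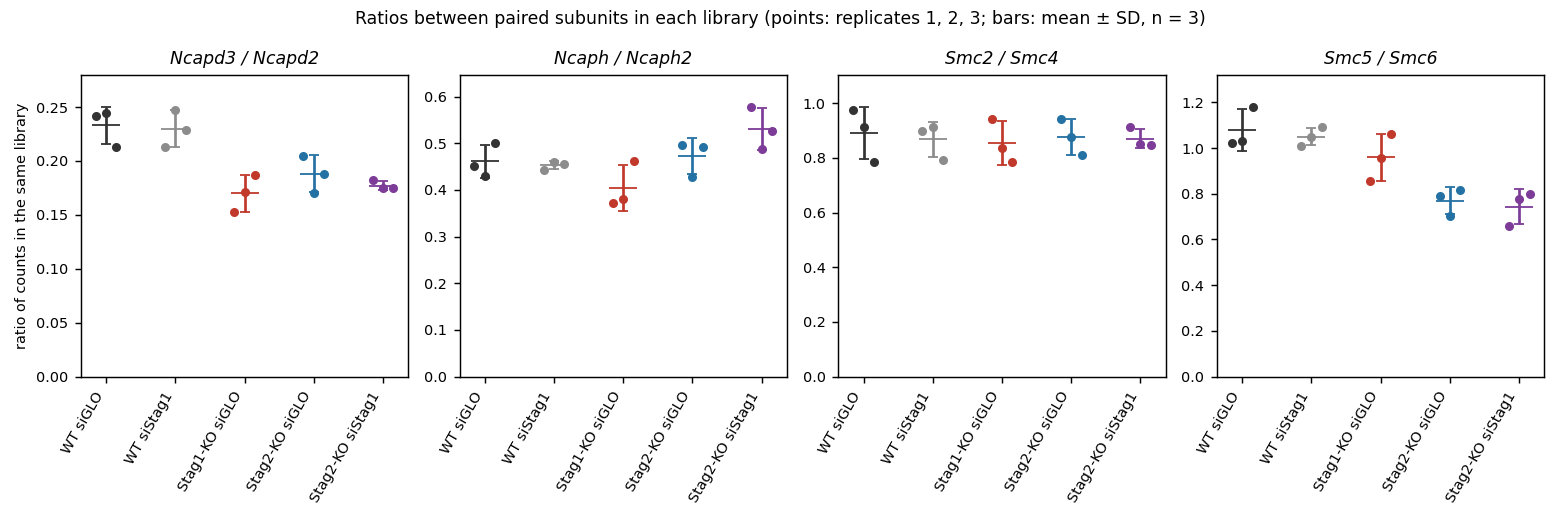
Ratios of counts of paired subunits in the same library (y axes, from 0) by condition (x axes), with points for replicates 1, 2 and 3 and the mean and 1 SD as lines (n = 3). Smc5 over Smc6 lies between 0.658 and 0.815 in the Stag2 knockout libraries and at 1.01 or above in the wild-type libraries, while Smc2 over Smc4 has means from 0.854 to 0.89.

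Of the 7 genes listed for the non-SMC subunits and recruiting factors of SMC5/6, 0 were called in Stag2-KO siGLO, in WT siStag1 or in Stag2-KO siStag1 against WT siGLO by edgeR, where 28.3%, 0.248% and 43.9% of all genes were. In Stag1-KO siGLO 2 of 7 fell, where 20.0% of all genes were called, and the summed level of the 7 was 4631 to 5032 normalized counts against 5280 to 5340 in WT siGLO. In WT siStag1 the sum was 5031 to 5255, also below every WT siGLO library, and in Stag2-KO siGLO 5547 to 5664, above every one. Stag2-KO siStag1, at 5251 to 5359, overlapped with WT siGLO. Ndnl2, which encodes the NSMCE3 subunit, had 478 ± 15.9 normalized counts (SD, n = 3) in WT siGLO and 331 ± 53.7 in Stag1-KO siGLO (-0.53 on the log2 scale, edgeR adjusted p = 0.00767). Ankrd32, which encodes the recruiting factor SLF1, had 431 ± 50.3 and 295 ± 70.4 (-0.55, edgeR adjusted p = 0.026). In Stag1-KO siGLO against Stag2-KO siGLO 2 of the 7 were lower, where 25.7% of all genes were called.

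Among 13 other factors of mitotic chromosomes, 3 rose in Stag1-KO siGLO against WT siGLO by edgeR. Of the 13, 3, 2 and 4 were called in Stag1-KO siGLO, Stag2-KO siGLO and Stag2-KO siStag1, where 20.0%, 28.3% and 43.9% of all genes were called. The 3 were Mki67 (log2 fold change 0.44), which coats mitotic chromosomes, the topoisomerase gene Top2a (0.28), and Plk1 (0.19), a mitotic kinase gene. In Stag2-KO siGLO Plk1 rose (0.29) and Mcph1, which encodes an inhibitor of condensin II, fell (-0.32). In Stag2-KO siStag1 Plk1 (0.34), Cdca8 (0.25) and Incenp (0.20), the last 2 for subunits of the chromosomal passenger complex, rose and Mcph1 fell (-0.42). None was called in WT siStag1. Of 6 other SMC and kleisin genes tested, Smc1b, a meiotic cohesin gene, fell in Stag1-KO siGLO (-0.93) and Stag2-KO siGLO (-0.78), and Rec8, a meiotic kleisin gene, rose in Stag2-KO siStag1 (0.55).

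Condensin subunit mRNAs vary over the cell cycle, so marker lists for its phases are given beside them. Of 17 G2/M genes, 5 rose and 0 fell in Stag1-KO siGLO, led by Cdc20 (log2 fold change 0.48), and their summed level was 74331 to 80908 normalized counts, against 66360 to 69732 in WT siGLO. It was 71783 to 74649 in WT siStag1, also above every WT siGLO library, and 66710 to 68241 in Stag2-KO siGLO and 69084 to 69926 in Stag2-KO siStag1, which overlapped with WT siGLO. Of 19 S-phase genes, 0 rose and 8 fell in Stag1-KO siGLO, led by Rrm2 (-0.40). Their summed level there was 89529 to 96424, against 98393 to 107402 in WT siGLO. In Stag2-KO siGLO 2 G2/M genes rose and 3 fell, and 1 S-phase gene rose. In Stag2-KO siStag1 4 G2/M genes rose and 3 fell, and 6 S-phase genes fell. In WT siStag1 none of either list was called, where 0.248% of all genes were. The genes called in Stag1-KO siGLO, Stag2-KO siGLO and Stag2-KO siStag1 numbered 5, 5 and 7 of 17 for G2/M and 8, 1 and 6 of 19 for S phase, where 20.0%, 28.3% and 43.9% of all genes were called. The part of cell cycle distribution in the members' values was not tested.

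The genes around each member were compared with it, within 5 Mb on its chromosome. In Stag1-KO siGLO, Stag2-KO siGLO and Stag2-KO siStag1 against WT siGLO, Ncapd3 had log2 fold changes of -0.26, -0.33 and -0.36, and its 38 tested neighbours had medians of -0.11, -0.079 and -0.14. Smc5 was at -0.35, -0.33 and -0.30, and its 28 neighbours at -0.044, 0.014 and -0.03. Both genes were thus lower than the median of their surroundings in all 3 comparisons. Ncapg2, on the same chromosome as Smc6, was at -0.32 in Stag2-KO siStag1 where its 50 neighbours had a median of 0.14. Smc6, which rose there by 0.23, lay among 21 neighbours with a median of 0.32, while its whole chromosome was at -0.045. Ncaph2, at -0.23 in that comparison, had 62 neighbours with a median of 0.12.

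The genes most like the members in pattern were sought over the 15 libraries among 11519 genes, as a description only, since the libraries share conditions. The mean of the 8 condensin genes was followed most closely by Agps (Pearson r = 0.939, Spearman rho = 0.918), Pank3 (0.931 and 0.921), Mybl1 (0.929 and 0.918), Ikbip (0.923 and 0.921) and AW549877 (0.92 and 0.932). The mean of Smc5 and Smc6 was followed by Lnp (0.95 and 0.832), Rpgr (0.928 and 0.893), Zfp960 (0.927 and 0.818), Gm10033 (0.925 and 0.861) and Spin4 (0.92 and 0.621). That mean was at -0.49 on the log2 scale in Stag1-KO siGLO replicate 1 and between -0.15 and 0.15 in the other 14 libraries, and without that library, left out after the values were seen, Pearson r for these 5 genes was 0.716 to 0.82. It also averages genes whose estimates had opposite signs in the Stag2 knockout conditions. The condensin mean itself ran from -0.15 in Stag1-KO siGLO replicate 1 to 0.14 in replicate 2 on the log2 scale, so libraries of 1 condition span its range.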

How the data were processed

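PolyA RNA-seq of 15 libraries was used. Per the labels and the study's methods, the authors mapped reads of 150 bp with STAR to mm10, then deposited raw counts for every gene, with no normalization. The counting tool, annotation and strand setting are not given in the sources used here. The 4 summary lines that follow the 23412 genes in the deposited counts were left out. Reads that map to several places or genes may be missing from a gene's count.

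Tests were run in edgeR 4.0.16 under R 4.3.3 on the genes kept by filterByExpr (minimum count 10 and minimum total 15, grouped by condition), with TMM scaling. A single quasi-likelihood model (glmQLFit) with a coefficient for each condition took in all 15 libraries, and contrasts were tested two-sided (glmQLFTest). P-values were adjusted by Benjamini-Hochberg over the 14508 genes tested, and the threshold was 0.1. All 10 members passed the filter. Depth was 14982560 to 19070126 counts per library. A floor of 3 counts, for counting error only, is far below every member. SEs are the log2 fold change over the square root of F. In a test on simulated data of Stag1-KO siGLO against WT siGLO, 144 of 200 genes with a fold of 2 were recovered and 15 of 14124 unchanged genes were called. For Stag2-KO siStag1 against WT siGLO 146 of 200 were recovered, and for the interaction 102 of 200. The largest fold of a member was 1.28, so recovery of changes as small as those of the members was not tested.

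The alternatives were DESeq2 1.42.0, its size factors in edgeR, library size alone, no filter, a minimum of 10 counts in each library, a fit of the compared libraries only, an adjusted p under 0.05, the replicate number as a block, and each library left out. The pairing comes from the replicate numbers in the labels, which do not say what the numbers mark. Correlations of deviations were taken over the 3 same-numbered pairs of each comparison. They ran from 0.26 to 0.364 (Stag1-KO siGLO and WT siGLO), 0.13 to 0.534 (Stag2-KO siGLO and WT siGLO) and 0.265 to 0.596 (WT siStag1 and WT siGLO). Between both Stag2-KO conditions they ran from 0.301 to 0.765, and between both knockouts from 0.266 to 0.316. The libraries of these comparisons were taken to be paired by number. The main fit, with its SEs, intervals and adjusted p-values, still took no account of the pairing, which only the block alternative used. In Stag2-KO siStag1 with WT siGLO (0.0454 to 0.435) and with WT siStag1 (-0.094 to 0.255) the numbers were not taken to pair the libraries. No 2 libraries of a condition were copies, with chi-square over degrees of freedom of 4.7 to 26.8.

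All 10 members are named. Of each list, at most 4 genes are named, those with the largest fold change that were called and averaged at least 50 normalized counts. The members, lists and tests were chosen with earlier results of these data known. Positions and lengths are from GENCODE M21 on mm10, which held all 10 members, and upstream sequences from RefSeq. Protein sequences were not used here. Plots were made with matplotlib 3.10.9 (Python 3.11.15).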

Additional observations from a re-analysis of the deposited data

How the results depend on the processing

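Of 1180 member fold changes refitted under the alternatives, 1112 stayed on the same side of the threshold, 53 calls were lost, 15 were gained and 0 calls changed sign. Of the 1112, 49 uncalled values had the other sign. The 17 calls were refitted 238 times, and 185 of these kept the call. In Stag1-KO siGLO against WT siGLO the members called (3) were 4 by DESeq2, 1 at an adjusted p under 0.05, 1 without a filter, 6 with the replicate block and 1 with only the libraries compared. In Stag2-KO siGLO against WT siGLO (3) and Stag2-KO siStag1 against WT siGLO (5) they were 1 and 3 at an adjusted p under 0.05, and 2 and 4 both without a filter and with library size alone. At an adjusted p under 0.05 they were 2 in each of Stag2-KO siStag1 against WT siStag1 (3) and the knockouts against each other (3, and 2 with only the libraries compared). In Stag2-KO siStag1 against WT siStag1 it was 5 with the replicate block and 5 with only the libraries compared, where replicate numbers did not pair the libraries. The block changed no other call than those given with the results and, in that last comparison, Ncapg (lower) and Smc6 (higher). Leaving out 1 library at a time, the members called ranged from 0 to 4 in Stag1-KO siGLO, 1 to 2 in Stag2-KO siGLO, 0 to 0 in WT siStag1 and 2 to 4 in Stag2-KO siStag1, each against WT siGLO, and from 0 to 0 against Stag2-KO siGLO, 2 to 3 against WT siStag1, 2 to 4 between the knockouts and 0 to 0 for the interaction.

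The log2 difference of the kleisin ratio from WT siGLO ranged from -0.29 to -0.13 in Stag1-KO siGLO, -0.071 to 0.038 in WT siStag1, -0.011 to 0.11 in Stag2-KO siGLO and 0.14 to 0.26 in Stag2-KO siStag1. It was 0.088 in Stag1-KO siGLO with the other subunits averaged in, against -0.19. The cause of these changes was not tested, and the smaller fits also had fewer libraries.

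Counts of all genes called moved by over 1.5 times in these fits. Stag1-KO siGLO went from 2907 to 4443 with the block and 1915 without WT siGLO replicate 2, without which Stag2-KO siGLO went from 4110 to 2524. WT siStag1 had 36, and 22 at an adjusted p under 0.05, 131 by DESeq2, 236 with the block, 126 with only the libraries compared and 1 to 15 with a library left out. Stag2-KO siStag1 against Stag2-KO siGLO had 924, and 548, 2049 with the block, 224 with only the libraries compared, and 416 to 1484 with a library left out. The knockouts against each other had 3722, and 2406 with only the libraries compared. The interaction had 23, and 102 by DESeq2, 138 with the block, 14 with only the libraries compared and 13 to 76 with a library left out.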

Other observations

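The mean of the condensin I subunit genes Ncapd2, Ncapg and Ncaph over that of the condensin II genes Ncapd3, Ncapg2 and Ncaph2, per kb of exon and chosen as an alternative ratio, was 1.49, 1.49 and 1.65 in WT siGLO replicates 1, 2 and 3. It was 1.97, 1.79 and 1.8 in Stag2-KO siStag1, above all WT siGLO libraries, and 1.62, 1.63 and 1.66 in Stag1-KO siGLO, which overlapped with them but was higher than the same-numbered library each time. WT siStag1, at 1.56, 1.51 and 1.5, overlapped as well, and Stag2-KO siGLO, at 1.7, 1.64 and 1.65, overlapped at its lower end. The ratio was not tested.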
